A study of Mus musculus with 16 samples.

Results

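The cell cycle and DNA replication genes are 37 named mouse genes: proliferation marks, cyclins and their kinase, replication factors, mitotic kinases, kinetochore proteins and CDK inhibitors. They were found as the probe sets that the array annotation gives to 1 of these genes alone, and where a gene had several, the brightest on average stood for it. Of the 37 genes, 36 had such a probe set among 18194 genes measured, and 35 passed the filter on low values that left 11116 genes for testing. Ccnb1, cyclin B1, was not analysed here for want of a probe set of its own. Tyms, thymidylate synthase, was measured but stayed under the filter, at log2 values of 2.79 to 3.25 in E14.5 mutants, 2.85 to 3.20 in E14.5 controls, 3.45 to 3.58 in E13.5 mutants and 3.56 to 3.68 in E13.5 controls.

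The study measured total RNA of mouse palate on 16 one-colour Affymetrix arrays, to ask how loss of Erk2 in neural crest affects the palate. Mutants were Erk2 fl/fl; Wnt1-Cre embryos, with 5 arrays at stage E14.5, named for days of embryonic development, and 3 at E13.5. Controls were Erk2 fl/fl embryos without the Cre, again with 5 arrays at E14.5 and 3 at E13.5, and the sample titles call them wild type. All 4 groups thus carried the floxed Erk2 allele on the C57BL/6J strain. Erk2 is a kinase at the end of the RAS and MAP kinase cascade, and the Wnt1-Cre driver removes it from neural crest cells and their descendants, not from epithelium, endothelium or muscle. The tissue label reads palate mesenchyme, while the series design text speaks of primary cells. The labels do not say whether 1 array holds 1 embryo, so p-values reflect the spread between these arrays, which may be technical.

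A cell enters division when D cyclins with their kinases release E2F factors from the RB protein, which lets E2F factors turn on cyclin E and the genes of DNA replication. Before S phase, CDC6 and CDT1 load the MCM helicase onto replication origins, and during S phase PCNA holds the polymerases on the DNA while ribonucleotide reductase supplies the nucleotides. Cyclin A, cyclin B and CDK1 then drive mitosis with the Aurora and Polo-like kinases, whereas p27 (Cdkn1b) and p57 (Cdkn1c) hold CDKs back in cells that leave the cycle. In the palate, proliferating mesenchyme makes the shelves grow before they lift and meet, and part of this mesenchyme later forms bone.

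Array values have no common scale across the 2 stages. The median of all probe sets on an array was 1.63 to 1.66 on the log2 scale at E14.5 and 3.39 to 3.44 at E13.5, while the median of the tested genes was 6.08 to 6.14 at E14.5 and 6.57 to 6.70 at E13.5. At E13.5 the array medians did not overlap between the genotypes, with 3.42 to 3.44 in mutants and 3.39 to 3.40 in controls. Arrays of 1 group correlated at 0.9933 to 0.9973 over the tested genes, in 26 pairs. Sex-linked probe sets placed 3 of 5 E14.5 mutants and 1 of 5 E14.5 controls as female, and all 6 E13.5 arrays as female. All 14 marker genes of palatal mesenchyme were tested, and their mean log2 value per array was 7.68 to 7.78 in E14.5 mutants, 7.66 to 7.80 in E14.5 controls, 8.40 to 8.46 in E13.5 mutants and 8.49 to 8.59 in E13.5 controls. Markers of oral epithelium, skeletal muscle, cartilage, bone, neurons, glia, endothelium and blood were also among the tested genes. In E14.5 mutants the group means of these lists ran from 4.09 for glia to 7.72 for bone. How many cells of each type the samples held was not measured.

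The promoters of these genes carry known cell cycle elements, and 6 are shown here because the results name these genes and because the elements differ between them. Sequences come from RefSeq on build GRCm38.p6 and give the 250 bases before the transcription start, 5′ to 3′ on the strand of the gene. Capitals mark 3 elements on either strand. These are the CCAAT box, which has those letters, the CHR element, searched as TTTGAA and in its other form as TTCGAA, and the E2F core. The E2F core was searched in 4 forms, first TTCCCGC, then with its middle changed TTCGCGC, thirdly the form TTGCCGC, and last the form TTGGCGC.
Mcm6 promoter, GRCm38.p6 chr1:128359706-128359955, minus strand: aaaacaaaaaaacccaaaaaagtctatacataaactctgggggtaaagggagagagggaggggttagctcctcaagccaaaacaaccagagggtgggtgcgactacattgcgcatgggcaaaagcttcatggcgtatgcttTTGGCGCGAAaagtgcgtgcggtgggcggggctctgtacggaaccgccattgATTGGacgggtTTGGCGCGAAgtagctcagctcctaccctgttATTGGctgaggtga
Mcm2 promoter, GRCm38.p6 chr6:88898781-88899030, minus strand: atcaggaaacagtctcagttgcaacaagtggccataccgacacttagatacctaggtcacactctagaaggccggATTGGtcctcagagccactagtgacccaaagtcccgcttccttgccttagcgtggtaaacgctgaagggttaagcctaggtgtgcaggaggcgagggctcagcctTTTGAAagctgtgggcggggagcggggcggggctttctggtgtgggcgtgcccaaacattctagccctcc
Cdk1 promoter, GRCm38.p6 chr10:69352913-69353162, minus strand: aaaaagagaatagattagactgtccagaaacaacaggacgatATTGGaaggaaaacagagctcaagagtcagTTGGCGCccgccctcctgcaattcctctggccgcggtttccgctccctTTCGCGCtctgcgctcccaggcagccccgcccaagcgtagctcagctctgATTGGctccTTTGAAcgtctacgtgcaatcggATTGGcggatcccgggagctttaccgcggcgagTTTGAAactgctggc
Top2a promoter, GRCm38.p6 chr11:99024190-99024439, minus strand: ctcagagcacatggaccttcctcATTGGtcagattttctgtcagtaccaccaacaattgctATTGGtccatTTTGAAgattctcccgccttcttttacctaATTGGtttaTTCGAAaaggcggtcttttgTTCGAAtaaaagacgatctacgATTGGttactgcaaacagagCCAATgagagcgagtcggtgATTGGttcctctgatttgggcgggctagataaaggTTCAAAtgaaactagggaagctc
Plk1 promoter, GRCm38.p6 chr7:122159185-122159434, plus strand: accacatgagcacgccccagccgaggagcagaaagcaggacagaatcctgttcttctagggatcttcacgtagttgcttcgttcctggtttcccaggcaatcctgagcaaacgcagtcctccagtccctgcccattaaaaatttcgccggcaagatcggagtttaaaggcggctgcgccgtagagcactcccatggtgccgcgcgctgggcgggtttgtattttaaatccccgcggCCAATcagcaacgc
Cdkn1b promoter, GRCm38.p6 chr6:134920151-134920400, plus strand: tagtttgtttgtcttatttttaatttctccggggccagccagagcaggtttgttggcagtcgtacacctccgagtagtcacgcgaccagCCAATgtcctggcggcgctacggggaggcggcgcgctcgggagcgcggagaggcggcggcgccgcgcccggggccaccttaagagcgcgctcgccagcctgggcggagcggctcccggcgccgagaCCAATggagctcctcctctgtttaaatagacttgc
The Mcm6 promoter held 4 E2F core matches in 2 stretches, each with 1 form on the printed strand and a different form overlapping it on the other strand, and no CHR element. The Top2a promoter held 6 CCAAT boxes and 4 CHR elements with no E2F core, and Cdk1 had matches of all 3 kinds. Of the 37 genes, 29 had a promoter entry. A CCAAT box lay in 23 of these 29 (79.3%), against 33.8% of 32851 mouse promoters of the same length. E2F cores lay in 9 of 29 (31.0%), against 7.9% of all promoters, and CHR elements in 9 of 29 (31.0%), against 17.1%. The entries of Aurka, Cdc6 and E2f1 lie wholly inside the annotated gene, downstream of its outermost start, and so may not be the main promoter. Without entries of that kind the counts were 21 of 26 for CCAAT boxes, 8 of 26 for E2F cores and 9 of 26 for CHR elements. Among 77 matches, 1 pair of different elements overlapped. A match is a run of letters and was not read as a bound site.

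None of the 35 tested genes passed the test between the genotypes at either stage. At E14.5, 0 of 35 genes were called by limma at an adjusted p under 0.05, where 2.63% of all tested genes were called, and 4 of 35 had an unadjusted p under 0.05, where 17.3% of all genes did. At E13.5, 0 of 35 were called, where 0.099% of all genes were, and 2 of 35 had an unadjusted p under 0.05, where 9.54% of all genes did. Differences, mutant minus control, ran between -0.13 and 0.16 on the log2 scale at E14.5 and between -0.20 and 0.175 at E13.5. The limits on these differences were narrow: the 95% interval lay within a 1.25-fold change either way for 34 of 35 genes at E14.5 (78.8% of all tested genes) and for 29 of 35 at E13.5 (65% of all). Within a 1.5-fold change lay all 35 at both stages, against 95.8% of all genes at E14.5 and 94% at E13.5. The outermost bounds were -0.30 and 0.34 at E14.5 and -0.46 and 0.45 at E13.5. These genes also varied little between arrays of 1 group, with a median within-group SD of 0.083 (0.030 to 0.17) against 0.11 over all tested genes. The comparisons of intervals and spread were not matched for level. Of the 35 genes, 1 had a mean log2 value under 6, against 4990 of the 11116 tested genes. In whole tissue, fewer cells of a type and less RNA per cell cannot be told apart.

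**Figure D1:**
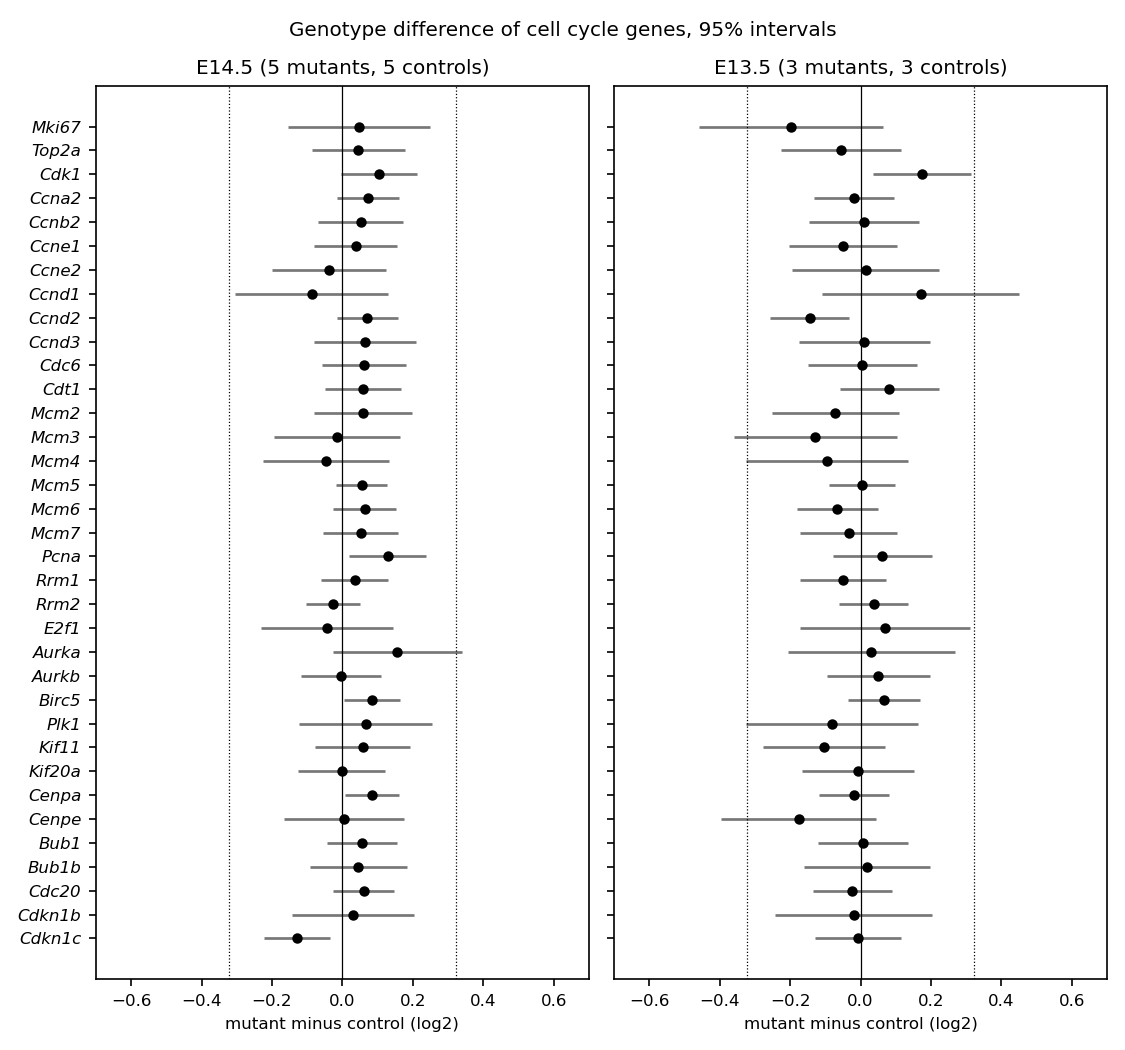
Mutant minus control difference (log2, horizontal axis) of each of the 35 tested cell cycle genes at E14.5 (left) and E13.5 (right). Points are limma estimates, bars are 95% intervals and dotted lines mark a 1.25-fold change; at E14.5 the bar of Aurka passes a dotted line, and at E13.5 those of Mki67, Ccnd1, Mcm3, Mcm4, Plk1 and Cenpe do.

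At E14.5, small positive differences outnumbered negative ones. The difference was above 0 for 26 of 35 genes, against 56% of all tested genes, and the median was 0.052 against 0.015 for all genes. The count was 27 of 35 with arrays centred on their median over all probe sets (57.4% of all genes), 25 of 35 with arrays centred on tested genes (49.5%) and 25 of 35 after quantile normalization (52.5%). With the mean over all probe sets of a gene it was 22 of 35, nearer to the share of all genes (56.6%). At E13.5, 16 of 35 were above 0, against 31.5% of all tested genes, with a median of -0.0074 against -0.044 for all genes. That E13.5 count depended on the scale, at 7 of 35 with arrays centred on their median over all probe sets (19.2% of all genes), 26 of 35 centred on tested genes (59.2%) and 21 of 35 after quantile normalization (48.6%). Each such count describes these genes and has no test of its own.

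Mki67, whose protein coats chromosomes of dividing cells and serves as the usual proliferation mark, had log2 values of 8.71, 8.77, 8.89, 9.07 and 9.08 in E14.5 mutants, against 8.95, 8.76, 8.89, 8.82 and 8.87 in E14.5 controls. Its E13.5 values were 9.28, 9.27 and 8.88 in E13.5 mutants, against 9.09, 9.45 and 9.48 in E13.5 controls. The genotypes overlapped at both stages, and mutant 3 was the lowest array at E13.5. The fitted difference was 0.047 ± 0.094 at E14.5 (moderated SE, n = 5 and 5, adjusted p = 0.847, limma) and -0.20 ± 0.12 at E13.5 (n = 3 and 3, adjusted p = 0.635). Top2a, topoisomerase II alpha, which untangles sister chromosomes, stood at 8.92, 9.01, 8.95, 9.18 and 9.09 in E14.5 mutants, against 9.03, 8.90, 9.02, 9.04 and 8.94 in E14.5 controls. At E13.5 Top2a stood at 9.77, 9.66 and 9.54 in E13.5 mutants, against 9.56, 9.78 and 9.79 in E13.5 controls. These ranges overlapped too, with differences of 0.046 ± 0.062 at E14.5 (adjusted p = 0.759) and -0.056 ± 0.080 at E13.5 (adjusted p = 0.866).

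Cdk1, the kinase that starts mitosis, had the highest difference of all 35 genes at E13.5. Its log2 values were 8.95, 8.81 and 8.92 in E13.5 mutants, against 8.81, 8.71 and 8.64 in E13.5 controls, and all 3 mutant arrays lay above all 3 controls. The difference was 0.175 ± 0.065, a 1.13-fold higher level that did not pass the threshold (unadjusted p = 0.017, adjusted p = 0.425, limma). Groups failed to overlap in this direction for 4.32% of all tested genes. At E14.5 Cdk1 measured 8.89, 8.89, 8.91, 8.99 and 8.99 in E14.5 mutants, against 8.89, 8.82, 8.88, 8.86 and 8.70 in E14.5 controls, overlapping through control 1 alone, with a difference of 0.10 ± 0.050 (adjusted p = 0.302). Ccna2, cyclin A2 of S and G2 phase, was at 9.43, 9.39 and 9.44 in E13.5 mutants, against 9.38, 9.44 and 9.49 in E13.5 controls, and its difference at that stage was -0.019 ± 0.053 (adjusted p = 0.942). Ccnb2, cyclin B2 of mitosis, was at 8.30, 8.42, 8.28, 8.42 and 8.33 in E14.5 mutants, against 8.41, 8.15, 8.32, 8.41 and 8.20 in E14.5 controls, with a difference of 0.052 ± 0.057 (adjusted p = 0.682). Both cyclins overlapped between genotypes. Ccna2 differed by 0.072 ± 0.041 at E14.5 and Ccnb2 by 0.010 ± 0.073 at E13.5, neither past the threshold.

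The cyclins that open the cycle had no common direction. Ccnd2, cyclin D2, measured 10.66, 10.63 and 10.54 in E13.5 mutants, against 10.74, 10.73 and 10.78 in E13.5 controls, so that every mutant array lay below every control. The difference of -0.14 ± 0.052 had the smallest p of the 35 genes at E13.5 and did not pass (unadjusted p = 0.0143, adjusted p = 0.413, limma), and 13.5% of all tested genes had mutant arrays wholly below controls at this stage. At E14.5 the values of Ccnd2 were 10.57, 10.60, 10.53, 10.62 and 10.60 in E14.5 mutants, against 10.42, 10.54, 10.50, 10.58 and 10.52 in E14.5 controls, with overlap, and its difference was 0.071 ± 0.040 (adjusted p = 0.39). Ccnd1, cyclin D1, a known target of MAP kinase signalling, had 9.15, 9.30, 9.23, 9.14 and 9.23 in E14.5 mutants, against 9.53, 9.15, 9.47, 9.32 and 9.01 in E14.5 controls. In the E13.5 arrays Ccnd1 had 8.78, 8.95 and 8.82 in E13.5 mutants, against 8.88, 8.76 and 8.40 in E13.5 controls, control 3 being the lowest array. Ccnd1 had the largest within-group SD of these genes, 0.17, and its differences were -0.087 ± 0.10 at E14.5 (adjusted p = 0.709) and 0.17 ± 0.13 at E13.5 (adjusted p = 0.72). Ccnd3 differed by 0.064 ± 0.068 at E14.5 and 0.011 ± 0.087 at E13.5, and overlapped at both stages. Ccne1, cyclin E1 of S phase entry, had 6.36, 6.25, 6.28, 6.24 and 6.22 in E14.5 mutants, against 6.19, 6.10, 6.27, 6.19 and 6.43 in E14.5 controls, and 7.08, 6.95 and 7.06 in E13.5 mutants, against 7.04, 7.09 and 7.10 in E13.5 controls. Ccne2, cyclin E2, had 8.71, 8.70, 8.71, 8.71 and 8.51 in E14.5 mutants, against 8.59, 8.93, 8.54, 8.76 and 8.71 in E14.5 controls, and 7.68, 7.98 and 7.80 in E13.5 mutants, against 7.87, 7.85 and 7.71 in E13.5 controls. All differences of these 2 cyclins, between -0.049 and 0.038, were smaller than their moderated SE.

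The licensing factors and the MCM helicase differed by -0.047 to 0.064 at E14.5 and by -0.13 to 0.081 at E13.5, and 0 of 8 were called. Mcm6, a helicase subunit, was the highest of them at E14.5, at 9.52, 9.45, 9.43, 9.57 and 9.47 in E14.5 mutants, against 9.45, 9.35, 9.40, 9.42 and 9.49 in E14.5 controls (0.064 ± 0.042, adjusted p = 0.464). Mcm4, another subunit, was the lowest there, at 9.37, 9.55, 9.73, 9.61 and 9.51 in E14.5 mutants, against 9.60, 9.72, 9.53, 9.57 and 9.59 in E14.5 controls (-0.047 ± 0.083, adjusted p = 0.822). Mutants and controls overlapped for both subunits. The other Mcm4 probe set, at nearly the same level, differed by 0.064 at E14.5, so the rank of Mcm4 depends on the probe set. Cdt1, the loading factor, was the highest at E13.5, with 9.55, 9.40 and 9.43 in E13.5 mutants, against 9.35, 9.45 and 9.34 in E13.5 controls (0.081 ± 0.066, adjusted p = 0.746). Mcm3 was the lowest at E13.5, with 8.80, 8.68 and 8.70 in E13.5 mutants, against 8.77, 8.85 and 8.96 in E13.5 controls (-0.13 ± 0.11, adjusted p = 0.752). Again the genotypes overlapped. Cdc6, Mcm2, Mcm5 and Mcm7 lay between these members.

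Pcna, the sliding clamp of the replication fork, was among the 2 genes of the 35 whose E14.5 arrays did not overlap. Its log2 values were 10.71, 10.75, 10.74, 10.74 and 10.77 in E14.5 mutants, against 10.67, 10.52, 10.68, 10.66 and 10.52 in E14.5 controls, every mutant above every control. The difference was 0.13 ± 0.051, a 1.09-fold higher level, and was 0.13 within batch 1 and 0.13 within batch 2 of the E14.5 arrays, but did not pass the threshold (unadjusted p = 0.0239, adjusted p = 0.207, limma). Mutant arrays lay wholly above controls for 2.53% of all tested genes. At E13.5 Pcna had 11.25, 11.03 and 11.20 in E13.5 mutants, against 11.13, 11.13 and 11.03 in E13.5 controls, with overlap and a difference of 0.062 ± 0.066 (adjusted p = 0.814). Rrm2, the regulated subunit of ribonucleotide reductase, had 9.55, 9.58, 9.60, 9.66 and 9.65 in E14.5 mutants, against 9.66, 9.62, 9.61, 9.65 and 9.65 in E14.5 controls (-0.026 ± 0.036, adjusted p = 0.761). Rrm1, its large subunit, had 9.25, 9.16 and 9.14 in E13.5 mutants, against 9.17, 9.21 and 9.31 in E13.5 controls (-0.049 ± 0.057, adjusted p = 0.835). Both subunits overlapped between genotypes at both stages. E2f1, the E2F factor of the set, differed by -0.044 ± 0.088 at E14.5 and 0.070 ± 0.11 at E13.5, within its SE at both stages.

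Among the mitotic kinases and motors, Aurka, the Aurora A kinase of spindle poles, had the highest E14.5 difference of all 35 genes. It measured 6.03, 5.93, 6.02, 5.97 and 6.08 in E14.5 mutants, against 5.86, 5.83, 6.02, 6.04 and 5.49 in E14.5 controls, with control 5 far below the other arrays and controls 3 and 4 within the mutant range. The difference of 0.16 ± 0.086 did not pass (adjusted p = 0.379, limma). Aurkb, the Aurora B kinase of the chromosomal passenger complex, was the lowest of the group at 7.31, 7.39, 7.40, 7.39 and 7.27 in E14.5 mutants, against 7.44, 7.23, 7.36, 7.26 and 7.49 in E14.5 controls (-0.0036 ± 0.053, adjusted p = 0.982). Birc5, survivin, a partner of Aurora B, had 9.22, 9.16 and 9.23 in E13.5 mutants, against 9.14, 9.15 and 9.12 in E13.5 controls, without overlap, and a difference of 0.067 ± 0.047 (adjusted p = 0.693). Kif11, the kinesin that pushes spindle poles apart, had 7.59, 7.61 and 7.58 in E13.5 mutants, against 7.62, 7.66 and 7.81 in E13.5 controls, also without overlap and in the other direction, at -0.10 ± 0.081 (adjusted p = 0.727). At E14.5 Birc5 differed by 0.084 ± 0.037 with an unadjusted p of 0.0384 and an adjusted p of 0.258, and control 4 lay among the mutants. Plk1 and Kif20a overlapped at both stages.

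Of the kinetochore and checkpoint genes, Cenpa, the histone that marks centromeres, had 8.57, 8.65, 8.58, 8.62 and 8.60 in E14.5 mutants, against 8.49, 8.49, 8.497, 8.62 and 8.51 in E14.5 controls. Control 4 lay among the mutants and the other 4 controls lay below all of them. Its difference was 0.083 ± 0.036 (unadjusted p = 0.0364, adjusted p = 0.251, limma). Cenpe, the kinetochore kinesin, was the lowest of the group at both stages, with 6.13, 6.34, 6.41, 6.40 and 6.40 in E14.5 mutants, against 6.47, 6.26, 6.44, 6.35 and 6.14 in E14.5 controls, and 7.01, 7.09 and 6.79 in E13.5 mutants, against 7.03, 7.25 and 7.13 in E13.5 controls. It overlapped at both stages, with differences of 0.0052 ± 0.080 at E14.5 and -0.18 ± 0.10 at E13.5. Bub1b, the checkpoint protein BubR1, was the highest at E13.5, with 7.68, 7.56 and 7.46 in E13.5 mutants, against 7.43, 7.56 and 7.66 in E13.5 controls (0.019 ± 0.083, adjusted p = 0.968). Cdc20, which activates the anaphase-promoting complex, differed by 0.060 ± 0.041 at E14.5 and -0.024 ± 0.053 at E13.5.

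Bub1, the checkpoint kinase at kinetochores, gave different answers from its 2 probe sets. The probe set with the higher mean had 8.15, 8.23, 8.12, 8.22 and 8.19 in E14.5 mutants, against 8.27, 8.04, 8.17, 8.11 and 8.04 in E14.5 controls, which overlapped (0.055 ± 0.046, adjusted p = 0.588). The other, dimmer probe set had 4.43, 4.78, 4.75, 4.70 and 4.73 in E14.5 mutants, against 5.33, 5.25, 4.84, 5.43 and 5.39 in E14.5 controls, and every mutant lay below every control. Group means were 4.68 ± 0.14 in E14.5 mutants and 5.25 ± 0.24 in E14.5 controls (SD, n = 5 each). When each of 19790 probe sets was fitted singly, a choice made after the data were seen, this probe set fell by 0.57 ± 0.11 in mutants (adjusted p = 0.0216, limma), the only call among 71 probe sets of these genes, where 1.24% of all probe sets were called. The difference was -0.69 within batch 1 and -0.50 within batch 2. The call was lost without E14.5 mutant 1 (adjusted p = 0.0672), mutant 5 (0.0552) or control 2 (0.057). At E13.5 the dimmer probe set had 4.71, 4.66 and 4.43 in E13.5 mutants, against 4.41, 4.63 and 4.68 in E13.5 controls, with overlap.

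The CDK inhibitors differed in sign at E14.5. Cdkn1c, p57, an imprinted inhibitor, measured 11.01, 11.13, 11.03, 11.04 and 11.11 in E14.5 mutants, against 11.15, 11.25, 11.15, 11.16 and 11.26 in E14.5 controls, and all 5 mutants lay below all 5 controls. Mutant arrays lay wholly below controls for 1.88% of all tested genes. The difference of -0.13 ± 0.044, 0.914 times the control level, was the smallest p of the 35 genes at E14.5 and did not pass (unadjusted p = 0.0104, adjusted p = 0.14, limma). It was -0.13 within each of the 2 batches. At E13.5 Cdkn1c had 10.71, 10.74 and 10.64 in E13.5 mutants, against 10.78, 10.63 and 10.71 in E13.5 controls, with overlap, and a difference of -0.0074 ± 0.057. Cdkn1b, p27, had 8.23, 8.32, 8.36, 8.31 and 8.28 in E14.5 mutants, against 8.24, 8.43, 8.21, 8.45 and 8.02 in E14.5 controls, and 7.12, 7.40 and 7.25 in E13.5 mutants, against 7.30, 7.39 and 7.14 in E13.5 controls, with overlap at both stages and differences of 0.029 ± 0.081 at E14.5 and -0.020 ± 0.10 at E13.5.

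The genotype difference at E14.5 minus that at E13.5 was called for 0 of 35 genes, where 0.117% of all tested genes were called. Ccnd2 had the smallest p, with a change of 0.22 ± 0.066 in its genotype difference (unadjusted p = 0.00526, adjusted p = 0.281, limma). It was the only 1 of the 35 with an unadjusted p under 0.05, where 10.4% of all genes were. Intervals of this double difference were wider, within 1.25-fold for 23 of 35 genes (45% of all tested genes) and within 1.5-fold for 34, all but Ccnd1 (86.6% of all). Its sign was above 0 for 27 of 35 genes as deposited (69.8% of all genes) and 16 of 35 with arrays centred on tested genes (43% of all), so no direction holds across scales.

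Further genes of the same pathways gave 2 calls, both higher in E14.5 mutants. Of 160 genes in 6 further lists, 149 were tested, so that these 2 calls are a smaller share than the 2.63% called over all genes at E14.5. At E13.5, 0 were called and 11 of 149 had an unadjusted p under 0.05, where 9.54% of all genes did. Gmnn, geminin, which binds CDT1 and blocks a second loading of origins, had 8.23, 8.24, 8.14, 8.14 and 8.23 in E14.5 mutants, against 7.99, 7.81, 8.09, 7.99 and 7.93 in E14.5 controls, every mutant above every control. It rose by 0.235 ± 0.049, or 1.18-fold (adjusted p = 0.0228, limma), with 0.34 in batch 1 and 0.17 in batch 2. Shmt1, a folate enzyme that feeds thymidylate synthesis, had 6.21, 6.18, 6.21, 6.24 and 6.37 in E14.5 mutants, against 6.09, 6.04, 5.92, 6.05 and 6.15 in E14.5 controls, again without overlap. It rose by 0.19 ± 0.047, or 1.14-fold (adjusted p = 0.0462), with 0.13 in batch 1 and 0.23 in batch 2. At E13.5 Gmnn had 8.37, 8.31 and 8.31 in E13.5 mutants, against 8.33, 8.34 and 8.30 in E13.5 controls, with overlap, and Shmt1 had 6.94, 6.95 and 6.92 in E13.5 mutants, against 6.98, 7.04 and 7.0 in E13.5 controls, all mutants below all controls. The call of Gmnn was lost under 7 alternatives, among them E14.5 arrays alone, either batch alone, sex as a term (adjusted p = 0.0719) and leaving out E14.5 mutant 1 (0.0708) or mutant 5 (0.0619). The call of Shmt1 was lost under 26, among them leaving out any single array but E14.5 control 5.

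The replication list leaned one way at E14.5. Of 39 other replication genes tested, 38 had a difference above 0, where 56% of all tested genes did, with a median of 0.076 against 0.015 for all genes, and Gmnn was the 1 called. Within batch 1, 30 of 39 were above 0 (55.4% of all genes) and within batch 2, 32 of 39 (53.2%). With the mean over all probe sets of a gene, 30 of 36 were above 0 (56.6%). The list median kept its sign in every one of the alternatives that gave an E14.5 value. It ran from 0.049 without control 2 (0.0093 over all genes) to 0.094 without controls 1 and 3 (0.021 over all genes). These genes share the same arrays, and such a count has no test of its own. Against the same 56%, other mitosis genes were above 0 for 45 of 54 (median 0.053, 0 called), E2F, RB and MYB-FOXM1 regulators for 13 of 18 (0.047, 0 called), other CDKs, phosphatases and checkpoint kinases for 11 of 18 (0.040, 0 called), nucleotide supply genes for 7 of 11 (0.074, 1 called) and other CDK inhibitors and withdrawal genes for 5 of 9 (0.067, 0 called). At E13.5, 16 of the 39 replication genes were above 0, where 31.5% of all genes were, with a median of -0.023 against -0.044 for all genes.

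Markers of oral epithelium and bone were among the genes called at E14.5. Of all tested genes, 1.48% were called higher, 1.15% were called lower and 56% had a difference above 0 at that stage. The oral epithelium list had 16 of 16 tested markers above 0 at E14.5 and 8 called higher, and its mean per array was 7.25 to 7.56 in E14.5 mutants against 6.89 to 7.04 in E14.5 controls. All 16 skeletal muscle markers were above 0 at E14.5, 0 called, with array means of 5.78 to 7.21 in mutants against 5.01 to 6.45 in controls. All 7 osteogenic markers were below 0 at E14.5 and 5 were called lower, with array means of 7.54 to 8.27 in mutants against 8.21 to 8.66 in controls. At E13.5 the muscle list had 16 of 16 above 0, with array means of 6.86 to 7.20 in mutants against 6.24 to 6.54 in controls. The epithelium list had 4 of 16 above 0 at E13.5, where 31.5% of all tested genes were. All 7 osteogenic markers were below 0 at E13.5 too, 0 called, with array means of 5.04 to 5.50 in E13.5 mutants against 5.72 to 6.03 in E13.5 controls. The array mean over the 35 cell cycle genes was 8.30 to 8.37 in E14.5 mutants against 8.26 to 8.33 in E14.5 controls, and 8.62 to 8.65 in E13.5 mutants against 8.62 to 8.67 in E13.5 controls. The part of these cell types in the small E14.5 differences was not tested.

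**Figure D2:**
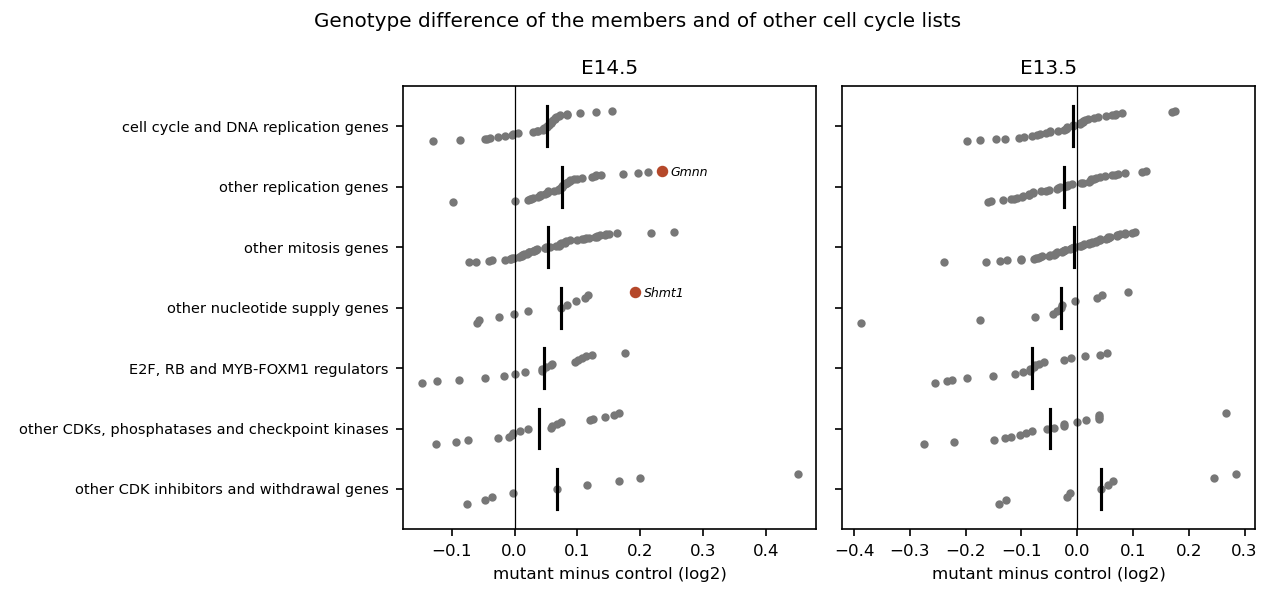
Mutant minus control difference (log2, horizontal axis) at E14.5 (left) and E13.5 (right) for the 35 cell cycle and DNA replication genes and the 6 further lists (rows). Each point is a gene, vertical bars are list medians and red points are called genes; 38 of 39 other replication genes lie above 0 at E14.5, and Gmnn and Shmt1 are the calls.

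Between the stages, most of these genes were lower at E14.5 as deposited, and a smaller group was called the same way on 3 scales. In mutants 22 of 35 were called lower and 6 higher at E14.5, where 72% of all tested genes were called lower and 13.4% higher. In controls 24 were called lower and 5 higher, where 74.9% of all genes were lower and 11.6% higher. A gene can pass the filter through 1 stage alone, as E2f1 did through E13.5. Among the other 34, which passed it at both stages (a split chosen after the data were seen), 21 were called lower and 6 higher in mutants, where 65.7% of 8727 such genes were lower and 15.9% higher, and 23 were called lower and 5 higher in controls, where 69.3% were lower and 13.7% higher. The median over the 35 was -0.35 in mutants, against -0.56 over all genes, and -0.43 in controls, against -0.63 over all genes. With arrays centred on their median over all probe sets, 34 of 35 were called higher and 0 lower in each genotype, where 80.2% of all genes were higher and 12% lower in mutants and 77.9% higher and 13.7% lower in controls. These counts thus carry the shift between the stages. Stage cannot be told apart from any difference in array processing between the stages, since only the E14.5 arrays have a batch label. Sex differed between the stages too, with all 6 E13.5 arrays, 3 E14.5 mutants and 1 E14.5 control placed as female. The sex term was fitted within E14.5 only and does not adjust the stage differences for this.

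Among the tested genes, dim ones shifted more than bright ones. A dim gene can pass the filter through 1 stage alone, and 8727 of the 11116 tested genes passed it at both stages. The medians by level include the genes that did not. The median stage difference in mutants was -1.34 for tested genes with a mean log2 value under 6, -0.36 at 6 to 8, -0.16 at 8 to 10 and -0.078 at 10 and over. In controls these medians were -1.45, -0.44, -0.19 and -0.095. Of the 19 members at 8 to 10, the median was -0.24 in mutants and -0.39 in controls, with 6 members above the bin's median in mutants and 7 in controls. Of the 11 members at 6 to 8, 5 in mutants and 6 in controls were above it.

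**Figure D3:**
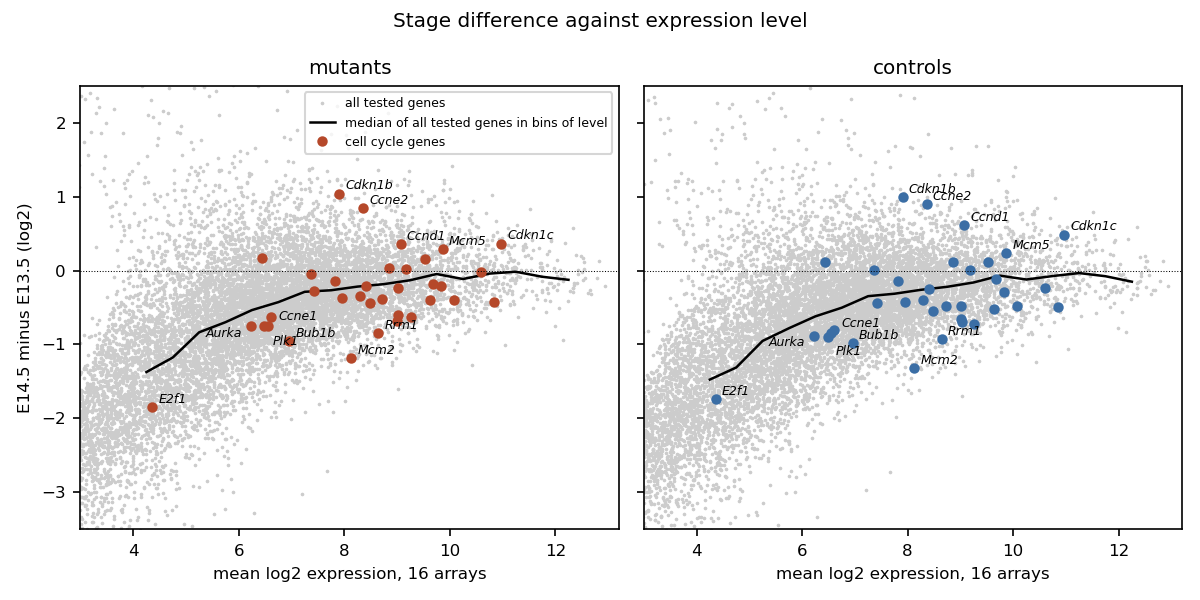
Stage difference, E14.5 minus E13.5 (log2, vertical axis), against the mean log2 value over 16 arrays for mutants (left) and controls (right). Grey points are all tested genes, the line is their median in bins of level and coloured points are the 35 cell cycle genes, of which Cdkn1b, Ccne2, Ccnd1, Mcm5 and Cdkn1c lie above the line and E2f1, Mcm2, Rrm1 and Bub1b below it; 617 and 611 of the 11116 genes lie outside the axes.

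Across the deposited scale, centring on tested genes and quantile normalization, 6 of the 34 members past the filter at both stages were called lower at E14.5 in both genotypes: Ccne1, Mcm2, Rrm1, Aurka, Plk1 and Bub1b. This rule was chosen after the data were seen, and 22.2% of the genes past the filter at both stages met it. With E2f1 the count was 7 of 35, where 30.2% of all tested genes met it. The rule leaves out the scale with arrays centred on their median over all probe sets. On that scale the 6 were called higher in both genotypes, as were 34 of 35 members in each. E2f1, an E2F factor that turns on replication genes, is not read as a drop, because its probe set passed the filter only through the E13.5 arrays. It had 3.84, 3.58, 3.57, 3.66 and 3.67 in E14.5 mutants, against 5.46, 5.38 and 5.71 in E13.5 mutants. In controls E2f1 had 3.71, 3.56, 3.63, 3.63 and 4.02 in E14.5 controls, against 5.47, 5.41 and 5.46 in E13.5 controls. All but 1 of the E14.5 arrays lay under the filter value of 4, and E2f1 was the dimmest tested member.

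Mcm2, a subunit of the replicative helicase whose promoter is printed above, had 7.61, 7.73, 7.90, 7.63 and 7.56 in E14.5 mutants, against 8.77, 8.90 and 8.94 in E13.5 mutants. Its values in controls were 7.61, 7.62, 7.57, 7.58 and 7.76 in E14.5 controls, against 8.92, 8.90 and 9.01 in E13.5 controls. All E14.5 arrays lay below all E13.5 arrays, at -1.19 ± 0.075 in mutants (adjusted p = 8.26e-10) and -1.32 ± 0.075 in controls (adjusted p = 2.18e-10, limma). Such a separation was common, found for 70.3% of all tested genes in mutants and 73.5% in controls. On the chosen probe sets Mcm2 stood far from the other helicase subunits. There Mcm3, Mcm6 and Mcm7 differed by -0.39 to -0.55 over the genotypes and Mcm4 and Mcm5 by 0.11 to 0.29. This gap depended on the probe set. Another probe set past the filter gave -1.38 in mutants and -1.55 in controls for Mcm5. For Mcm6 another gave 0.12 in mutants and 0.038 in controls. The other Mcm4 probe set gave -0.33 in mutants and -0.46 in controls. The others of the 6 called lower are given on the deposited scale. Rrm1, the large reductase subunit, fell by 0.85 in mutants and 0.93 in controls. Plk1, the Polo-like kinase of mitotic entry, fell by 0.75 in mutants and 0.89 in controls, and Aurka fell by 0.75 in mutants and 0.88 in controls. Bub1b fell by 0.95 in mutants and 0.98 in controls, and Ccne1 fell by 0.76 in mutants and 0.84 in controls. Among these 6, 4 have a second probe set past the filter at both stages, and the 4 second probe sets were lower at E14.5 as well, that of Mcm2 by less, at -0.44 in mutants and -0.60 in controls.

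On the same 3 scales, 5 members were called higher at E14.5 in both genotypes, all past the filter at both stages, where 12.7% of such genes and 10.8% of all tested genes were: Cdkn1b, Ccne2, Cdkn1c, Ccnd1 and Mcm5. Cdkn1b, p27, which blocks cyclin E and CDK2, had 8.23, 8.32, 8.36, 8.31 and 8.28 in E14.5 mutants, against 7.12, 7.40 and 7.25 in E13.5 mutants. In controls it had 8.24, 8.43, 8.21, 8.45 and 8.02 in E14.5 controls, against 7.30, 7.39 and 7.14 in E13.5 controls. The stages did not overlap, and the difference was 1.04 ± 0.093 in mutants (adjusted p = 5.11e-08) and 0.99 ± 0.093 in controls (adjusted p = 8.36e-08, limma). E14.5 arrays lay wholly above E13.5 arrays, as also for Ccne2 and Cdkn1c, for 12.2% of tested genes in mutants and 10.9% in controls. Ccne2, cyclin E2, had 8.71, 8.70, 8.71, 8.71 and 8.51 in E14.5 mutants, against 7.68, 7.98 and 7.80 in E13.5 mutants. Its control values were 8.59, 8.93, 8.54, 8.76 and 8.71 in E14.5 controls, against 7.87, 7.85 and 7.71 in E13.5 controls. Again all E14.5 arrays lay above all E13.5 arrays, at 0.85 ± 0.087 in mutants and 0.90 ± 0.087 in controls, whereas Ccne1 went the other way.

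Cdkn1c, p57, rose by 0.37 ± 0.051 in mutants and 0.49 ± 0.051 in controls at E14.5 relative to E13.5, without overlap. Ccnd1 rose by 0.36 ± 0.12 in mutants and 0.62 ± 0.12 in controls, and Mcm5 rose by 0.29 ± 0.039 in mutants and 0.24 ± 0.039 in controls. A second probe set of Ccnd1 went the other way, with 7.94, 7.92, 7.74, 8.05 and 7.84 in E14.5 mutants against 8.67, 8.59 and 8.65 in E13.5 mutants. The second probe set of Mcm5 did too, with 6.10, 6.06, 6.06, 6.10 and 6.00 in E14.5 mutants against 7.53, 7.36 and 7.45 in E13.5 mutants. In controls these second probe sets differed by -0.715 for Ccnd1 and -1.55 for Mcm5. A further probe set of Ccnd1 past the filter differed by -0.26 in mutants and 0.0175 in controls. The rises of Ccnd1 and Mcm5 therefore rest on the chosen probe set, while Cdkn1b, Ccne2 and Cdkn1c have 1 probe set each past the filter. Over the 19 members with several probe sets past the filter at both stages, the sign of the stage difference disagreed between them for 7 in mutants and 8 in controls.

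**Figure D4:**
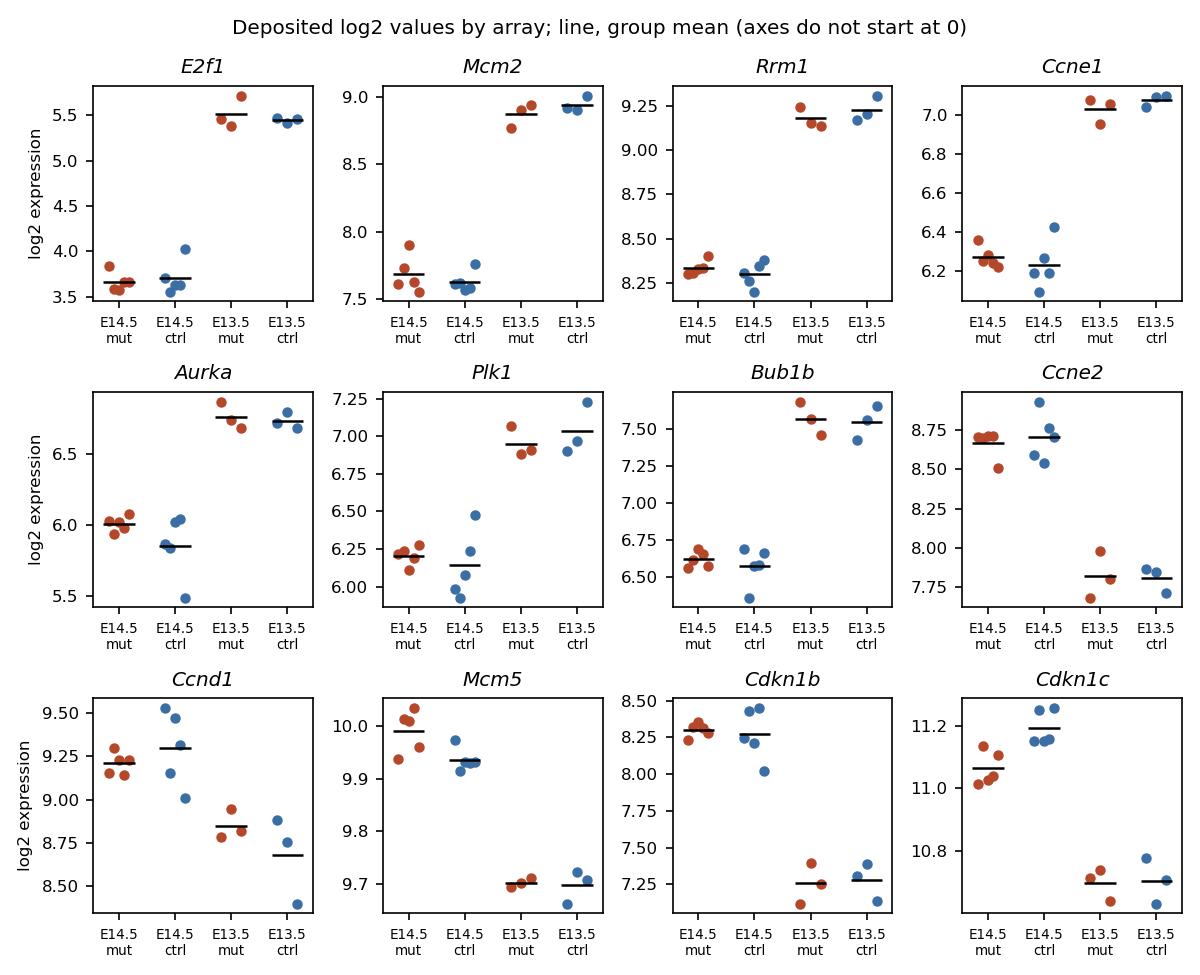
Deposited log2 values (vertical axis, not starting at 0) of the 12 genes called the same way on 3 scales, by group: E14.5 mutants, E14.5 controls, E13.5 mutants and E13.5 controls from left to right. Each point is an array and each line a group mean; the stages do not overlap for any of the 12 genes within either genotype, and E2f1 lies under the filter value of 4 on all but 1 E14.5 array.

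The other 23 members were not called the same way on the 3 scales in both genotypes. Of these, Cdk1, Cdc6, Mcm4 and Birc5 stayed above 0 and Top2a, Ccna2, Cdt1 and Cenpe stayed below 0 on all 3 scales in both genotypes, and the other 15 changed sign. The sign of Mcm4 rests on the chosen probe set. Its other probe set, with a mean log2 value of 9.515 against 9.53, differed by -0.33 in mutants and -0.46 in controls as deposited. As deposited, Mki67 differed by -0.24 in mutants and -0.48 in controls, Top2a by -0.62 in mutants and -0.73 in controls, and Pcna by -0.42 in mutants and -0.49 in controls. Centred on tested genes, Mki67 and Pcna turned positive in both genotypes. Close to 0 as deposited were Cdk1, at 0.041 in mutants and 0.11 in controls, and Birc5, at 0.021 in mutants and 0.0042 in controls. Array means of cell type lists also lay apart between the stages. Those of the 7 tested osteogenic markers, 5 of them past the filter at both stages, were 7.54 to 8.27 in E14.5 mutants against 5.04 to 5.50 in E13.5 mutants. In controls they were 8.21 to 8.66 at E14.5 against 5.72 to 6.03 at E13.5. In cartilage markers, with 5 of 8 past the filter at both stages, the array means were 4.36 to 5.08 in E14.5 mutants against 5.93 to 6.31 in E13.5 mutants. Cartilage means in controls were 4.55 to 4.71 at E14.5 against 5.36 to 6.11 at E13.5. As deposited, tested genes with a mean under 6 had median stage differences of -1.34 in mutants and -1.45 in controls. The lower cartilage means cannot be told apart from that shift. The other lists also had lower group means at E14.5, except oral epithelium in mutants. The part of tissue makeup in the stage differences was not tested.

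**Figure D5:**
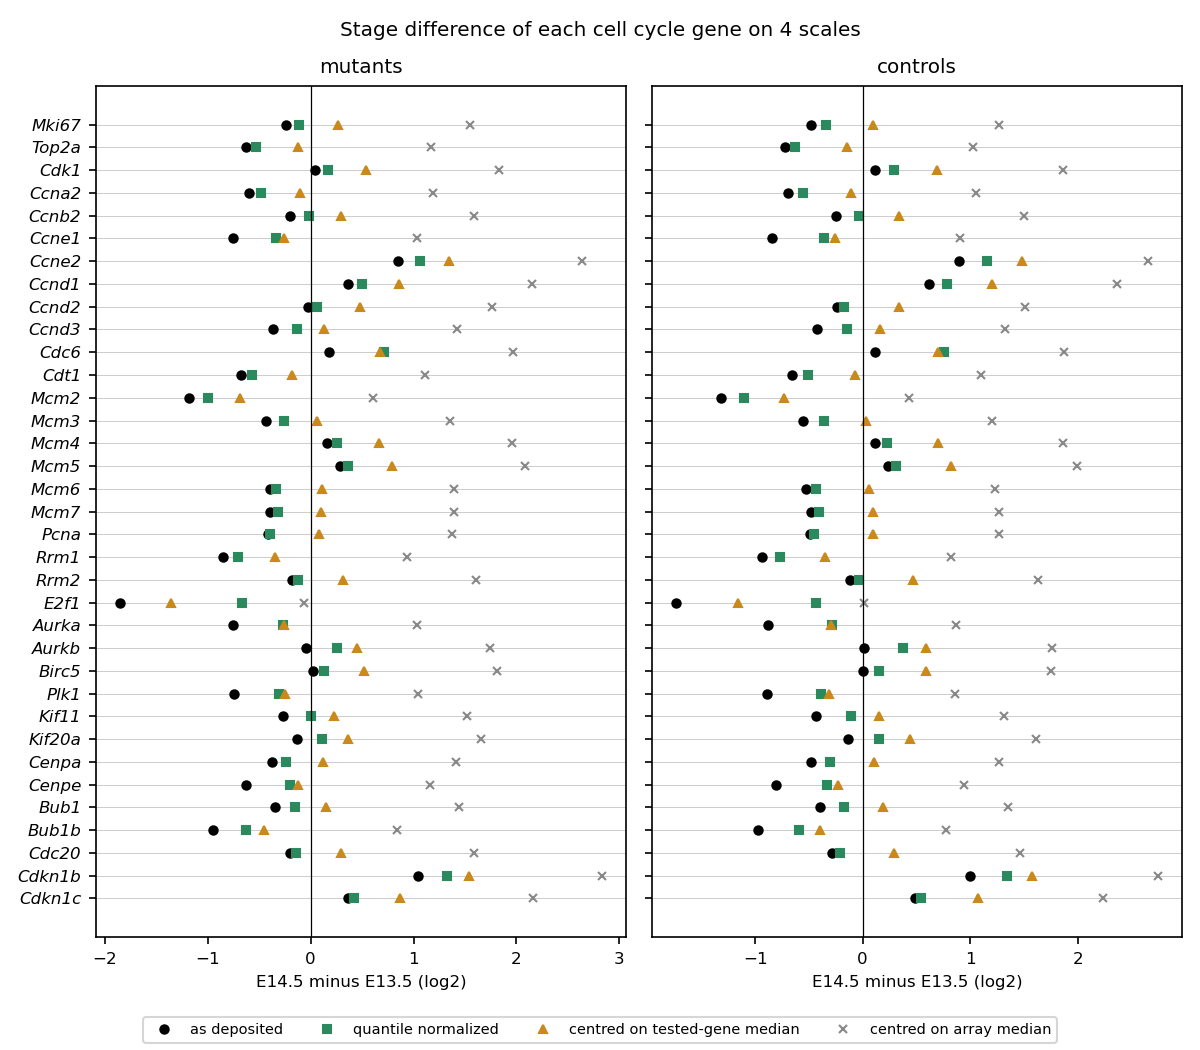
Stage difference, E14.5 minus E13.5 (log2, horizontal axis), of each of the 35 genes (rows) in mutants (left) and controls (right) on 4 scales. Symbols are the deposited values, quantile normalized values and values centred on either median; centring on the array median moves 34 of 35 genes in mutants and all 35 in controls above 0, and Cdkn1b and Ccne2 lie above 0 on all 4.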

How the data were processed

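The deposited values are log2 expression values of 45101 probe sets on 16 arrays, which the authors made with GCRMA per the submitters' processing notes, in a version not given in the sources used here. Values were used as deposited. The platform annotation, with symbols updated through RefSeq, gave 1 gene to 34958 probe sets, several to 932 and none to 9211. The probe set with the highest mean stood for its gene, and 11116 of 18194 genes with a log2 value of at least 4 on at least 3 arrays were tested. Arrays carry no read depth, and their number limits the precision.

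Groups came from the labels. One limma 3.58.1 fit (lmFit and eBayes, R 4.3.3) covered the 16 arrays by group, with the E14.5 batch of the labels as a term (replicates 1 and 2 in batch 1, the others in batch 2). It gave mutant minus control by stage, the change of that difference between stages, and, per genotype, E14.5 minus E13.5. Calls were made at an adjusted p under 0.05 (Benjamini-Hochberg over all tested genes), and 95% intervals used the moderated spread. The members and lists were chosen with earlier results of these data known. Values per array are given for the members with the smallest p in each genotype contrast and for the lowest and highest difference of each role group, and of the other lists every called gene is named. Alternatives changed the filter, probe set, scale, variance model, batch, sex, a beta-actin signal term, the replicate block and each array in turn. Motifs were searched in RefSeq promoters of build GRCm38.p6 over 250 bases. The fit was tested on simulated arrays. Figures used Python 3.11.15 and matplotlib 3.10.9. The level of the targeted gene was not analysed here.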

Additional observations from a re-analysis of the deposited data

Results flagged for a closer look

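In groups of 5 arrays, 5 of 70 member groups held an array whose gap to its nearest neighbour took up most of the range of the group, by Dixon's criterion at 95%, and chance alone flags about 1 in 20 groups. For Ccne2, cyclin E2, E14.5 mutant 5 stood at a log2 value of 8.51, below the next lowest mutant at 8.70. For Cenpe, the kinetochore kinesin, E14.5 mutant 1 stood at 6.13, below 6.34. For Ccna2, cyclin A2, E14.5 control 2 stood at 8.62, below 8.76. For Mcm2, E14.5 control 5 stood at 7.76, above 7.62. For Cenpa, E14.5 control 4 stood at 8.62, above 8.51, and this array lay among the mutants. No array was left out for this in the values above.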

How the results depend on the processing

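No genotype contrast called a member under any of 33 alternatives, with 1 exception: with the mean over all probe sets of a gene, 1 member, Bub1, was called lower at E14.5 (-0.26, adjusted p = 0.0365). The fit of single probe sets, added after the data were seen, gave 1 called probe set, that of Bub1 at -0.57. Called genes in all at E13.5 were 11, and 20 with array medians centred or with no batch term, 28 after quantile normalization, 85 with array weights, 3 with batch 1 alone, and 6 with the replicate block or the beta-actin term. At E14.5 they were 292, and 184 with no filter, 127 after quantile normalization, 155 with array weights, 64 with E14.5 arrays only, 31 with batch 1 alone, 128 with batch 2 alone, 104 with the replicate block and 143 with sex as a term. Called differences of effects were 13, and 8 under the filter of log2 6, 25 with array medians centred, 40 with array weights, 6 with batch 1 alone or the beta-actin term, 20 with batch 2 alone or without E14.5 controls 1 and 3, and 3 with the replicate block. Leaving out 1 array gave 6 to 35 genes at E13.5, 105 to 262 at E14.5, 3 to 20 for the difference, and 0 members throughout. Stage calls were 16161 in mutants and 16297 in controls with no filter, 6108 in mutants and 6186 in controls under log2 6, and ranged over 9129 to 9546 (mutants) and 9342 to 9647 (controls) when 1 array was left out. Members called higher between stages were then 5 to 7 in mutants and 5 to 6 in controls, and called lower 22 to 23 in mutants and 23 to 25 in controls. With the mean over probe sets, 3 members in mutants and 2 in controls were called higher. Centring on array medians gave 34 higher and 0 lower in each genotype, centring on tested genes 20 higher and 8 lower in mutants and 16 higher and 10 lower in controls, and quantile normalization 10 higher in mutants and 11 in controls. With array medians centred, stage differences turned to 1.03 for Ccne1, 0.60 for Mcm2, 0.94 for Rrm1, 1.04 for Aurka, 1.04 for Plk1 and 0.84 for Bub1b in mutants, and to 0.91 for Ccne1, 0.43 for Mcm2, 0.82 for Rrm1, 0.012 for E2f1, 0.87 for Aurka, 0.86 for Plk1 and 0.77 for Bub1b in controls. With the mean over probe sets they turned to -0.21 for Ccnd1, -0.71 for Mcm5 and -0.16 for Cdkn1b (whose other probe set is under the filter) in mutants, and to -0.027 for Ccnd1, -0.84 for Mcm5 and -0.23 for Cdkn1b in controls. The cause of these changes was not tested.

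Same-numbered mutants and controls correlated at -0.17 to 0.17 at E13.5 and at -0.45 to 0.027 at E14.5 in their deviations, so the numbers were not taken to pair the arrays, and the replicate block could not be fitted to the stage differences. The dimmer Bub1 probe set had an adjusted p of 0.0805 with the block. Precision is limited by 3 and 5 arrays a group, by dim probe sets such as E2f1, and by the lack of a common scale between the stages.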
